A study of Mus musculus with 10 samples.

Results

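The genes of the FAS and caspase death pathways and of their control by p53 were followed in germinal center B cells with and without ZBTB38: Fas, Fadd, Cflar, Casp8, Casp9, Apaf1, Trp53, Mdm2 and Cdkn1a. They were chosen by function, since other cells are reported to die through caspases when the zinc finger protein ZBTB38 is lost, and each was matched by its symbol, giving 9 of the 22380 genes in the files. RNA-seq libraries came from 2 ZBTB38 WT mice (Zbtb38fl/fl without Cre), 2 ZBTB38 HET mice (Zbtb38fl/+ x Vav-Cre) and 6 ZBTB38 KO mice (Zbtb38fl/fl x Vav-Cre), all labelled C57Bl6/N, with no age given. Every mouse carried at least 1 floxed allele, the floxed line came from a single founder, and every mouse had been immunized with the hapten-protein conjugate NP-OVA in alhydrogel 2 weeks before NP-binding GL7+IgD- cells were sorted. Vav-Cre acts mainly in hematopoietic cells and the WT mice lacked it, so that Cre and the loss of ZBTB38 cannot be told apart in WT against KO, while HET and KO both carried it.

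FAS is a death receptor that marks germinal center B cells. When its ligand binds, the adaptor FADD recruits and activates the initiator caspase-8, and CFLAR (c-FLIP) holds this step back. Cell stress instead releases cytochrome c from mitochondria, which assembles APAF1 and caspase-9 into the apoptosome. The transcription factor p53, encoded by Trp53, is kept low by the ubiquitin ligase MDM2 and induces Mdm2 itself, the cell cycle inhibitor Cdkn1a (p21) and, in many cells, Fas and Apaf1.

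The libraries held 26612431 to 41059082 estimated counts. Zbtb38 itself had 161.7 and 151.8 CPM (counts scaled to the size of each library) in WT, 117.4 and 105.8 in HET, and 18.6 to 50.3 in KO (median 30.3), so that the genotypes did not overlap. In TPM, KO replicate 2 had 46.1 and lay next to the HET libraries, with 49.6 each, while the other KO libraries had 17.5 to 23.7. These values sum all Zbtb38 transcripts, and reads inside and outside the floxed exon were not counted apart here. That exon holds all of the protein-coding sequence. From aligned reads, the paper reports its transcripts as fully lost in KO and intermediate in HET, and shows a representative trace per genotype. All 10 germinal center B cell markers, Bcl6 among them, were above 1 CPM in every library. ZBTB38 KO replicate 6 stood apart from the rest, with a median correlation with the other libraries of 0.954 against 0.971 to 0.983. In bulk samples, fewer cells that express a gene and less RNA per cell cannot be told apart.

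All 9 genes were measurable in all 10 libraries, and their levels spanned a wide range. Levels of different genes are compared here in TPM, the level of transcripts scaled by their length and by depth. Fas had the highest mean, 197 ± 22.8 TPM (SD, n = 10), followed by Trp53 with 168.9 ± 18.8, Casp8 with 77.1 ± 8.86 and Mdm2 with 64.0 ± 12.1. Casp9 had 29.6 ± 6.73 TPM, Cflar 18.3 ± 2.6, Apaf1 9.78 ± 3.46, Cdkn1a 6.07 ± 2.07 and Fadd 3.55 ± 0.633. The median of the 14354 genes tested was 11.6 TPM, which placed Fas at percentile 93.6, Trp53 at 92.5 and Fadd at 34.8. The receptor Fas thus exceeded its adaptor Fadd 55.8-fold in TPM on average (38.7-fold to 76.0-fold in single libraries). Of the neighbours in this order, Trp53 and Casp8 did not overlap between libraries, nor did Mdm2 and Casp9, while all other neighbours did. Fas was above Trp53 in 9 of 10 libraries, Casp8 above Mdm2 in 9 and Cdkn1a above Fadd in 8.

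**Figure D1:**
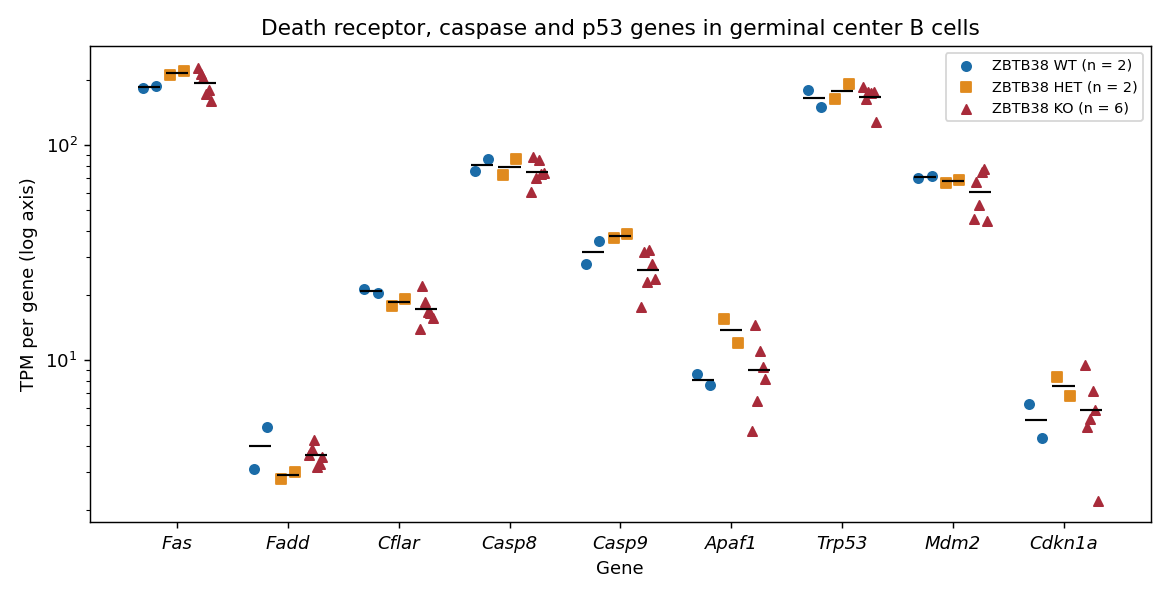
Level of each gene in TPM (log axis) in the 2 ZBTB38 WT, 2 HET and 6 KO libraries. Points are libraries and bars are group means; the levels run from Fas (161.1 to 229.2 TPM) down to Fadd (2.79 to 4.87 TPM).

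Fas (chr19:34290666-34327772, GRCm38, plus strand) encodes the death receptor. It had 150.7 and 149.7 CPM in WT, 181.0 and 184.1 in HET, and 135.3 to 242.3 in KO (median 161.6). Both WT and both HET values lay inside the KO range, whose highest value came from KO replicate 1. KO exceeded WT by 0.21 on the log2 scale (SE 0.204, 95% interval -0.24 to 0.66, edgeR adjusted p = 0.999), and the 4 control libraries by 0.06 (interval -0.27 to 0.39, adjusted p = 0.941). Fasl, the ligand made by T cells and natural killer cells, was at 0 CPM in 5 of the libraries and reached 1.47 in HET replicate 1.

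Fadd (chr7:144577318-144582463, minus strand), the adaptor, had 8.43 and 12.8 CPM in WT, 7.65 and 8.11 in HET and 8.16 to 12.8 in KO (median 10.6). The 2 HET libraries were the lowest of the 10, and the 2 WT libraries spanned nearly the whole range of KO. The difference of KO from WT was 0.01 (SE 0.303, interval -0.66 to 0.68, adjusted p = 0.999) and KO minus WT plus HET was 0.21 (interval -0.31 to 0.73, adjusted p = 0.852).

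Casp8 (chr1:58795374-58847503, plus strand), the initiator caspase of the receptor pathway, was the steadiest member within KO in CPM, though not in TPM. It had 104.8 and 115.8 CPM in WT, 100.1 and 119.0 in HET and 108.1 to 118.7 in KO (median 111.5). The groups overlapped, and the KO libraries lay within the HET pair. The SD of log2 CPM within KO was 0.0526, at percentile 0.286 of all genes tested, where the median gene had 0.326. KO differed from WT by 0.03 (interval -0.24 to 0.30) and KO minus WT plus HET was 0.04 (interval -0.16 to 0.23). These edgeR intervals, on counts, were the narrowest of all members. With limma on log2(TPM + 1), KO minus WT was -0.11 for Casp8 (SE 0.156), and the SE was smaller for Fas (0.147) and Trp53 (0.153).

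Cflar (chr1:58711508-58758884, plus strand), the inhibitor of caspase-8 activation, had 43.2 and 37.7 CPM in WT, 35.8 and 40.5 in HET and 30.6 to 45.6 in KO (median 35.7). All groups overlapped. Between KO and WT the difference was -0.12 (SE 0.188, interval -0.54 to 0.29, adjusted p = 0.999) and KO minus WT plus HET was -0.08 (interval -0.38 to 0.22, adjusted p = 0.909). Cflar makes a long protein with a caspase-like part and a short protein without it, and the files quantify both. Their coding sequences share the first 599 bases and then part, as shown here with the shared bases in lower case and the bases after the split in capitals, read 5′ to 3′ from the Gencode transcripts.
Cflar long: aaaattgagtatcaaACCTTCTGTTTTATA
Cflar short: aaaattgagtatcaaGTATAACTCAAGGGT
The long form shown codes for 484 amino acids and the short one for 215. The short form held 20.3% and 16.9% of the Cflar TPM in WT, 9.68% and 23.8% in HET, and 2.88% to 33.9% in KO (median 26.7%). The lowest share was that of KO replicate 6, and the KO range covered both other groups.

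Casp9 (chr4:141793612-141815976, plus strand), the initiator caspase of the mitochondrial pathway, had 70.1 and 79.6 CPM in WT, 94.6 and 98.1 in HET and 60.2 to 77.5 in KO (median 74.6). Both HET libraries were above all 8 others. Against WT, KO was at -0.07 (SE 0.154, interval -0.41 to 0.27, adjusted p = 0.999). KO minus WT plus HET was -0.26 (SE 0.125, interval -0.53 to 0.01, adjusted p = 0.744).

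Apaf1 (chr10:90989311-91082770, minus strand), the scaffold of the apoptosome, had 36.9 and 29.8 CPM in WT, 70.8 and 51.3 in HET and 25.3 to 58.3 in KO (median 37.1). KO replicate 2, at 58.3, was the only KO library inside the HET range, and both WT values lay inside the KO range. KO minus WT was 0.20 (SE 0.294, interval -0.45 to 0.85, adjusted p = 0.999) and KO minus WT plus HET was -0.30 (interval -0.87 to 0.28, adjusted p = 0.803). Without HET replicate 1 the latter was -0.03, and with the balance of long and short transcripts as a covariate, described further on, it was 0.18.

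Trp53 (chr11:69580359-69591873, plus strand) had 204.6 and 166.5 CPM in WT, 188.2 and 216.8 in HET and 171.4 to 273.8 in KO (median 200.6). The groups overlapped, with KO replicate 1 the highest of all. KO minus WT was 0.16 (SE 0.189, interval -0.25 to 0.58, adjusted p = 0.999) and KO minus WT plus HET was 0.10 (interval -0.20 to 0.40, adjusted p = 0.882). Trp53 is known to make a form with an alternatively spliced end, whose coding sequence leaves the usual one after 1083 bases. Both are printed with the shared bases in lower case and the bases after the split in capitals.
Trp53 usual end: agggctcactccagcTACCTGAAGACCAAG
Trp53 alternative end: agggctcactccagcCTCCAGCCTAGAGCC
The usual end shown closes a coding sequence of 387 amino acids and the alternative one of 378. Transcripts with the alternative end held 9.58% and 8.53% of the Trp53 TPM in WT, 13.7% and 16.9% in HET, and 5.53% to 18.2% in KO (median 12.3%). WT and HET both lay inside the KO range.

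Mdm2 (chr10:117688875-117710758, minus strand), the ligase that removes p53, had 147.9 and 147.4 CPM in WT, 142.6 and 144.6 in HET and 111.0 to 174.1 in KO (median 130.2). The 4 control libraries were close together and KO spread to both sides of them. For KO against WT the difference was -0.11 (SE 0.172, interval -0.50 to 0.27, adjusted p = 0.999) and KO minus WT plus HET was -0.09 (interval -0.36 to 0.17, adjusted p = 0.874).

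Cdkn1a (chr17:29090976-29100727, plus strand), the classic p53 target that halts the cell cycle, was the most variable member within KO. It had 4.25 and 3.32 CPM in WT, 6.21 and 5.21 in HET and 1.38 to 9.70 in KO (median 3.89). The lowest value of all came from KO replicate 6 and the highest from KO replicate 1. Within KO the SD of log2 CPM was 0.707, at percentile 89.5 of the genes tested. KO minus WT was 0.23 (SE 0.639, interval -1.18 to 1.65, adjusted p = 0.999) and KO minus WT plus HET was -0.09 (interval -1.10 to 0.92, adjusted p = 0.978), so that differences of 1 on the log2 scale were not resolved for this gene.

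The promoter windows of all 9 genes were searched for the p53 half-site, the short palindromic element that p53 binds in pairs. Matches were found for Mdm2, Trp53 and Cdkn1a. All are shown with the match in capitals, on the strand of the gene, from RefSeq on GRCm38.p6. The windows run from 250 bases before to 50 bases after each annotated start.
Mdm2 promoter, chr10:117710925-117710954: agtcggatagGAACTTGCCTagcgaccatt
Trp53 promoter, chr11:69580274-69580303: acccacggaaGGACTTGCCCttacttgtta
Cdkn1a promoter, chr17:29090896-29090925: tcctgggtggGGACTAGCTTtctggccttc
Cdkn1a promoter, chr17:29090918-29090947: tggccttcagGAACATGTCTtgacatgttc
All 9 genes had a window, 10 in all because Cdkn1a has 2 starts. A half-site was found in 3 of the 10 windows, and in 8.36% of all 32851 windows of 300 bases. The windows of Fas and Apaf1 and the downstream Cdkn1a window were among those without a match. ZBTB38 is known to bind methylated CG, and the same windows held 2 to 46 CG dinucleotides, with 8 of the 10 above the median of 7 over all windows. Apaf1 had 46, Mdm2 35, Casp9 28 and Fadd 22, while Casp8 had 5 and the upstream Cdkn1a window 2. These matches describe the sequence only, and binding was not measured.

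The upstream Cdkn1a start supplied 64.9% and 28.8% of Cdkn1a TPM in WT, 57.8% and 54.6% in HET and 0% to 67.1% in KO (median 58.0%). The 0% was listed in KO replicate 6, where Cdkn1a had 46 estimated counts in all. A short Fas transcript, whose coding sequence is 192 bases against 984, held 15.1% and 15.2% of Fas TPM in WT, 11.4% and 12.6% in HET and 13.0% to 19.2% in KO (median 14.8%). Both HET libraries were below all others for this share. These 4 classes of transcript were picked after their values were seen. The share of the most abundant transcript was tested for the 8 genes with at least 2 transcripts above 1 TPM on average, which leaves out Fadd with its single transcript. These tests cover the upstream Cdkn1a start, which is its most abundant transcript, and the short Fas transcript as the remainder of the main one, while the Cflar and Trp53 classes were not tested. None of the 16 exact two-sided permutation tests passed, with adjusted p of 0.838 to 1. The smallest unadjusted p was 0.0714, for the main Casp9 transcript in WT against KO (87.1% ± 6.54, n = 2, against 93.9% ± 2.45, n = 6), where the design allows no p below 0.0357.

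**Figure D2:**
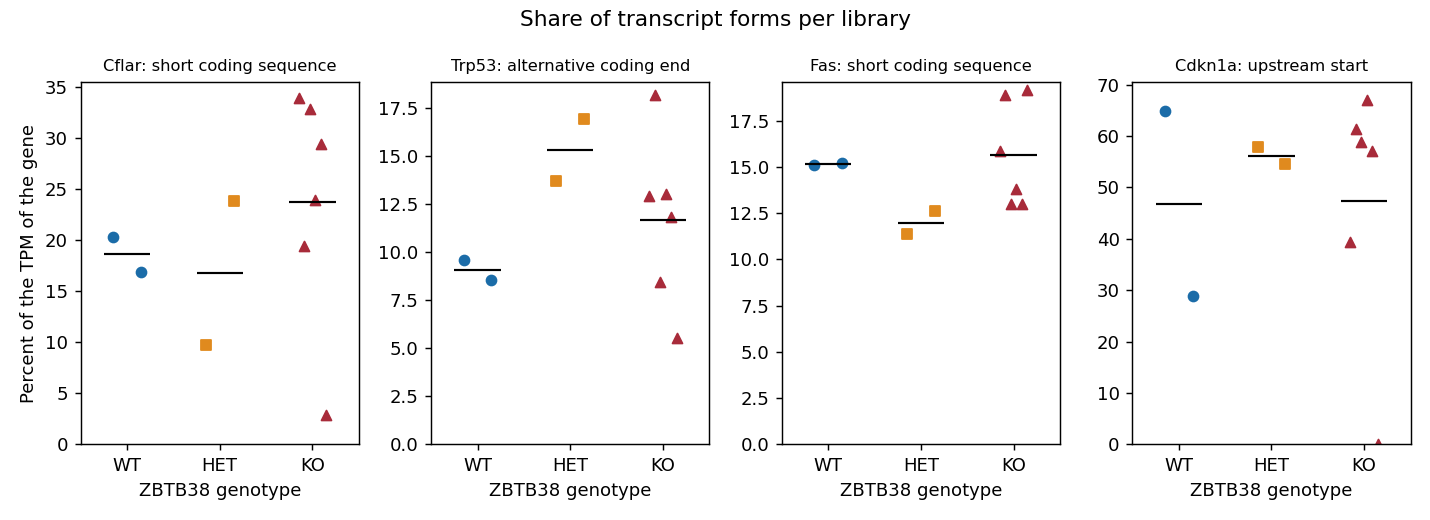
Percent of the TPM of a gene in 1 class of its transcripts, for the short Cflar coding sequence, the alternative Trp53 end, the short Fas coding sequence and the upstream Cdkn1a start. Points are libraries by genotype and bars are group means; KO replicate 6 has the lowest Cflar share (2.88%) and the lowest Cdkn1a share (0%).

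WT against KO compares these genes with and without ZBTB38, where only the KO mice carried Vav-Cre. WT plus HET against KO adds to the controls the HET mice, which carried Vav-Cre and had less Zbtb38 RNA than WT. No member passed an adjusted p of 0.1 in either. Among all genes, 1 of 14203 passed in WT against KO (0.00704%) and 1 of 13347 in WT plus HET against KO (0.00749%). At a threshold of 0.05 no gene passed in WT against KO. This includes the deleted gene Zbtb38, with 156.8 ± 7.02 CPM in WT and 31.7 ± 10.8 in KO. The lack of a call therefore does not show that a gene was unchanged. At an unadjusted p under 0.05, the count of members was 0 of 9 in both, where 2.19% and 6.3% of all genes were found. The KO estimate was higher than WT for 6 of the 9 members (51.8% of all genes), with a median of 0.03 against 0.01 for all genes. Against WT plus HET it was higher for 4 of 9 (52.8% of all genes), with a median of -0.08 against 0.02. No member had groups that did not overlap in CPM in either comparison, where 6.58% and 1.52% of all genes had. The largest interval end among the 8 members other than Cdkn1a was 0.85 on the log2 scale in WT against KO, that of Apaf1, and -0.87 in WT plus HET against KO, also that of Apaf1. The WT plus HET comparison shares its WT and KO libraries with the first, so that the 2 are not independent.

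**Figure D3:**
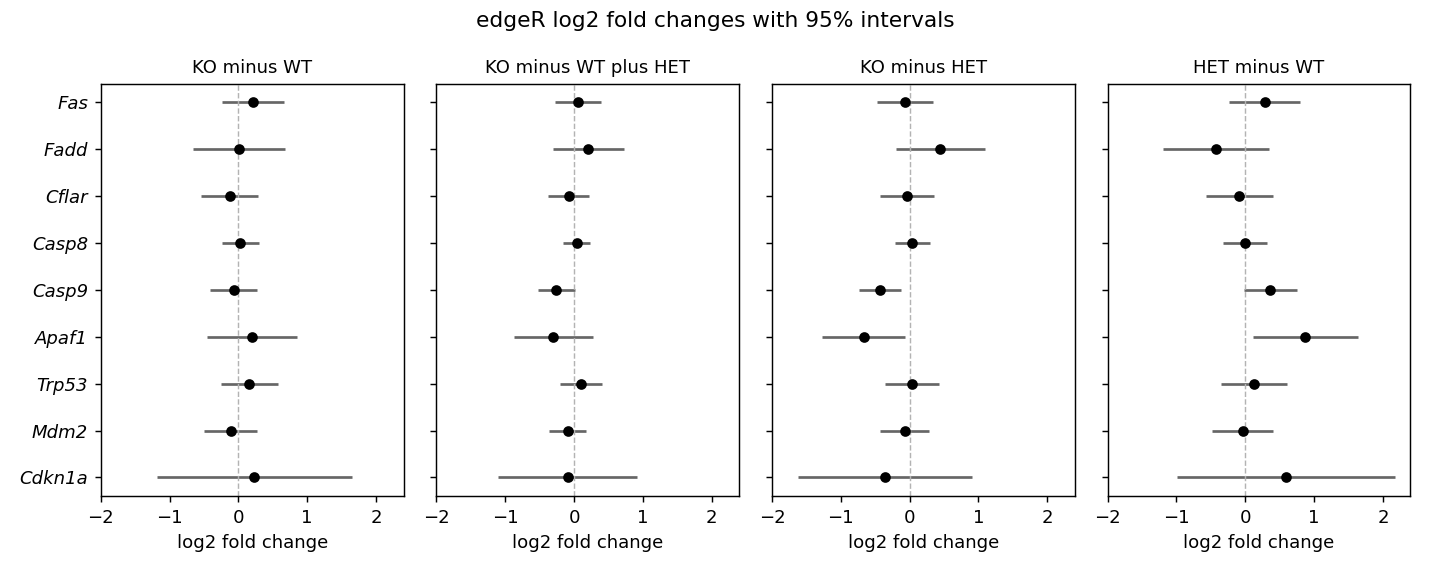
Log2 fold change of each gene (point) with its 95% interval (line) from edgeR in 4 comparisons of genotype. All intervals in KO minus WT and in KO minus WT plus HET include 0; those of Casp9 and Apaf1 in KO minus HET and of Apaf1 in HET minus WT do not, at adjusted p of 0.37, 0.446 and 0.745.

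HET against KO compares mice that all carry Vav-Cre. No member passed the adjusted threshold, as 1 of 14354 genes did (0.00697%). At an unadjusted p under 0.05, 2 of 9 members were found, both with a lower estimate in KO, against 10.2% of all genes and 5.46% for that direction. They were the apoptosome pair. Casp9 had 96.3 ± 2.43 CPM in HET (n = 2) and 71.4 ± 7.29 in KO (n = 6), a log2 difference of -0.43 (SE 0.139, interval -0.73 to -0.13, edgeR adjusted p = 0.37). Apaf1 had 61.0 ± 13.8 and 38.4 ± 11.8 CPM, a difference of -0.67 (SE 0.274, interval -1.27 to -0.07, adjusted p = 0.446). Left out in turn, the libraries moved Casp9 between -0.46 and -0.37 and Apaf1 between -0.89 and -0.42, the latter without HET replicate 1. DESeq2, which called 458 of the 14354 genes (3.19%), gave Casp9 an adjusted p of 0.0743, which passes, and Apaf1 one of 0.253. The CPM did not overlap for Casp9 and, in the other direction, for Fadd, which makes 2 of 9 against 13.9% of all genes. Fadd had 7.88 ± 0.323 CPM in HET and 10.7 ± 1.84 in KO, a difference of 0.44 (interval -0.20 to 1.09, adjusted p = 0.618).

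WT against HET, with 2 mice each, again found no member at the adjusted threshold, against 0.00697% of all genes. Apaf1 was the 1 member of 9 at an unadjusted p under 0.05 (6.42% of all genes; 2.44% for a higher estimate in HET). It had 33.3 ± 5.03 CPM in WT and 61.0 ± 13.8 in HET, a difference of 0.87 (SE 0.35, interval 0.11 to 1.64, adjusted p = 0.745), and 0.62 without HET replicate 1. Fitted on these 4 libraries alone, the adjusted p was 0.0944, which passes, as it did for 523 of 13220 genes (3.96%). Casp9 had the next smallest p, with 74.8 ± 6.71 and 96.3 ± 2.43 CPM (0.36, interval -0.02 to 0.75, adjusted p = 0.787). Groups of 2 often do not overlap, and did not for 48% of all genes and for 6 of the 9 members, namely Fas, Fadd, Casp9, Apaf1, Mdm2 and Cdkn1a. The HET pair is shared by the 2 comparisons in which Apaf1 and Casp9 had their smallest p.

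The libraries also differed in the balance of long and short transcripts. A length index was taken as the median log2 deviation of 1387 genes over 4000 bases minus that of 2418 genes under 1500 bases. It was 0.18 and 0.176 in WT, 0.279 and 0.376 in HET, and -0.73 to 0.206 in KO, lowest in KO replicate 1, so that the HET pair lay above all others. Apaf1 has the longest transcripts of the members, 5615 bases of effective length on average, with Fadd at 3670 and Casp9 at 3429, while Fas has 1115 and Cdkn1a 943. With the index as a covariate, chosen after the data were seen, the HET against KO difference was -0.25 for Casp9 (adjusted p = 0.626) and -0.20 for Apaf1 (adjusted p = 0.83), that of Fas became -0.41 (adjusted p = 0.558), and no gene passed the adjusted threshold. In WT against HET, Apaf1 stayed at 0.72 (adjusted p = 0.424). In WT against KO, Apaf1 became 0.53 (adjusted p = 1). The direction of 6 of the 9 members turned with the covariate in WT against KO, Fas and Cdkn1a among them, of 6 in WT plus HET against KO, of 3 in HET against KO and of 0 in WT against HET. The part that the length balance has in these differences was otherwise not tested.

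**Figure D4:**
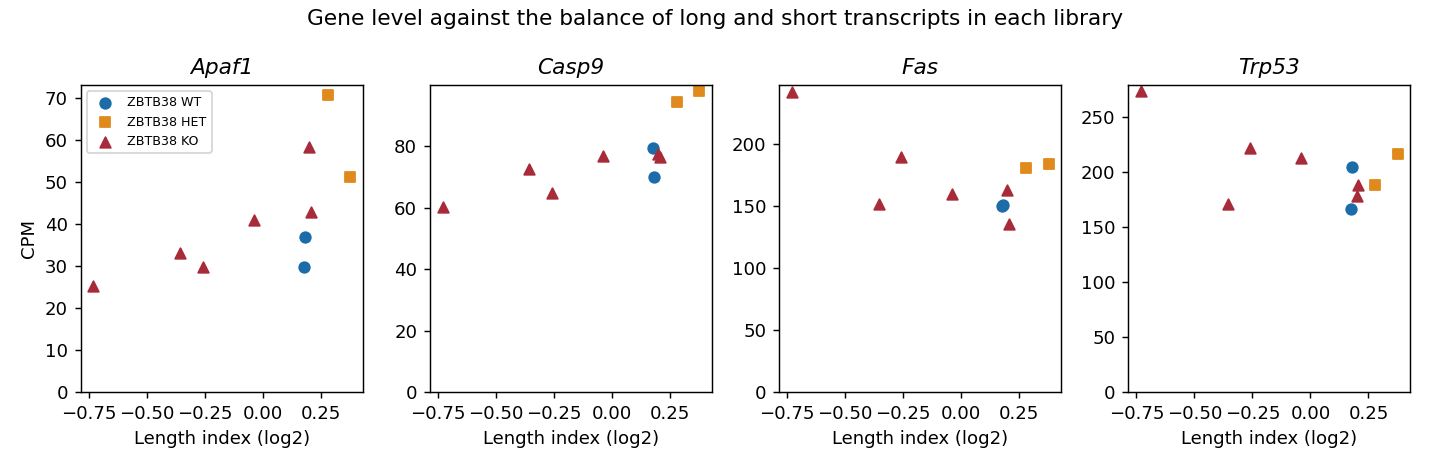
CPM of Apaf1, Casp9, Fas and Trp53 in each library against the length index of that library, a log2 difference between genes with long and with short transcripts. KO replicate 1, at the lowest index (-0.73), has the lowest Apaf1 (25.3 CPM) and Casp9 (60.2 CPM) and the highest Fas (242.3 CPM) and Trp53 (273.8 CPM), and the HET pair, at the highest index, has the 2 highest Casp9 values.

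Markers of other cell types moved with the HET group as well. The summed level of 10 myeloid markers was 485.9 to 616.6 CPM in WT, 93.8 to 105.4 in HET and 82.6 to 801.9 in KO, with 8 of the 10 above 1 CPM in every library. The 11 T cell markers summed to 383.4 to 413.4 CPM in WT, 248.9 to 260.9 in HET and 290.3 to 391.4 in KO, and the 6 naive B cell markers to 828.9 to 937.4, 413.4 to 454.8 and 520.7 to 1324.8. The 5 erythroid markers gave 44.8 to 57.1, 35.5 to 38.8 and 55.6 to 96.5 CPM, and the 7 plasma cell markers 1626.6 to 1831.4, 1487.8 to 1575.2 and 1467.5 to 2022.3. The HET pair was lowest for T cell, naive B cell and erythroid markers. The 10 germinal center B cell markers summed to 8309.9 to 8664.3 CPM in WT, 8816.4 to 9070.5 in HET and 7947.5 to 11449.9 in KO. No marker in any list was at 0 in all libraries, and the part of these cells in the Casp9 and Apaf1 values was not tested.

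The balance between partners was measured as the ratio of their TPM within a library. Cflar over Casp8, inhibitor to initiator, was 0.283 and 0.241 in WT, 0.247 and 0.224 in HET and 0.198 to 0.266 in KO (median 0.228). Casp9 over Apaf1 was 3.27 and 4.66 in WT, 2.37 and 3.22 in HET and 2.20 to 3.8 in KO (median 3.00). Mdm2 over Trp53 was 0.391 and 0.475 in WT, 0.409 and 0.360 in HET and 0.243 to 0.441 in KO (median 0.380), with the lowest ratio in KO replicate 1. Fadd over Fas was 0.0171 and 0.0258 in WT, 0.0132 and 0.0136 in HET and 0.0157 to 0.0219 in KO (median 0.0182). The groups compared overlapped for every ratio. None of the 8 exact two-sided permutation tests of the log2 ratios passed, with adjusted p of 0.518 to 0.61 and a smallest unadjusted p of 0.214, reached by Cflar over Casp8 (KO minus WT -0.19) and by Casp9 over Apaf1 (-0.37), where the smallest p that the design allows is 0.0357 for WT against KO and 0.00476 for WT plus HET against KO.

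Over the 10 libraries, 3 of the 36 pairs of members passed an adjusted permutation p of 0.1 by Pearson r of log2(CPM + 1), and none by Spearman rho (smallest adjusted p 0.204). The share over pairs of other genes is not given here, so the count is not read as particular to these members. Casp9 and Apaf1 varied together (r = 0.80, permutation p = 0.00616, adjusted 0.0895; rho = 0.75, p = 0.0171, adjusted 0.307). Without the 2 libraries farthest in Casp9, r was 0.75, and within KO it was 0.88. Fas and Trp53 had r = 0.80 (permutation p = 0.00738, adjusted 0.0895) and rho = 0.68 (p = 0.0357, adjusted 0.428), with r = 0.61 without KO replicates 1 and 4 and 0.87 within KO. Fadd and Apaf1 went opposite ways, with r = -0.79 (permutation p = 0.00746, adjusted 0.0895), rho = -0.82 (p = 0.00568, adjusted 0.204), r = -0.73 without the 2 farthest libraries and -0.72 within KO. Leaving out KO replicate 6 left these at 0.79, 0.80 and -0.78. The pairs share libraries that differ in the length index. Effective lengths averaged 3429 bases for Casp9, 5615 for Apaf1, 3670 for Fadd, 1115 for Fas and 1545 for Trp53. In KO replicate 1, where the index was lowest, Fadd was at 12.6 CPM and Apaf1 at 25.3. The part of the index in these correlations was not tested.

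The genes whose log2(CPM + 1) followed each member most closely over the 10 libraries were mostly from outside these pathways. For Fas they were Elof1 (r = 0.981) and Ccdc124 (r = 0.973). Trp53 was closest to Atp1b3 (0.951) and Ssu72 (0.932), Mdm2 to Rrp12 (0.959) and Nsun2 (0.945), and Cdkn1a to Zkscan6 (0.973) and Dram1 (0.960). Dram1 is itself known as a p53-induced gene. Casp9 was closest to RP23-211P15.1 (0.976) and Mef2a (0.975), Apaf1 to Cit (0.930) and Rbm26 (0.927), and Casp8 to Vps33b (0.941) and Mia2 (0.924). Cflar followed Dpp9 (0.909) and Dip2b (0.891), and Fadd followed RP23-73B23.4 (0.917) and Sept1 (0.911). Each was picked as 1 of the 2 highest of 14353 correlations, so that the values describe a ranking and are no test.

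The wider pathways were read from 5 lists, and no gene of any list passed the adjusted threshold in any of the 4 comparisons. In WT plus HET against KO, 0 of 21 tested genes of the death receptor pathway had an unadjusted p under 0.05 (6.3% of all genes). The list had a median of -0.07 against 0.02 for all genes. Its smallest p was that of Traf3, an adaptor of TNF receptors, with 47.2 ± 7.45 CPM in controls and 37.4 ± 5.88 in KO (-0.33, adjusted p = 0.744), followed by Daxx and the deubiquitinase Cyld.

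Of the caspases and apoptosome list, 1 of 17 tested genes had an unadjusted p under 0.05 in that comparison, a share near the 6.3% of all genes, and the median was 0.02. It was Casp1, the inflammatory caspase, with 64.2 to 77.0 CPM in controls and 72.0 to 98.1 in KO (0.26, adjusted p = 0.744). Casp6 had 27.8 to 33.9 CPM in controls and 26.9 to 54.7 in KO (0.23, adjusted p = 0.78). Casp2 had 117.5 to 140.8 CPM in controls and 86.8 to 128.3 in KO (-0.24, adjusted p = 0.744), and Casp4 15.5 to 18.4 and 11.6 to 23.7 (-0.02, adjusted p = 0.99). Casp12 was above 0 in 1 library and was not tested. Parp1, a DNA repair enzyme that caspases cleave, had 605.9 to 805.0 CPM in controls and 395.1 to 710.0 in KO (-0.30, adjusted p = 0.744).

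The inhibitors of apoptosis had 1 of 7 genes at an unadjusted p under 0.05 in WT plus HET against KO, lower in KO (4.05% of all genes in that direction), and a median of -0.19. This was Arel1, a ubiquitin ligase that targets antagonists of these inhibitors. Arel1 had 154 ± 30.8 CPM in controls and 105 ± 22.7 in KO (-0.55, SE 0.181, adjusted p = 0.744), and KO minus WT alone was -0.36 (adjusted p = 0.999). Its lowest values were those of KO replicates 1 and 6 (71.7 and 86.1 CPM), the libraries with the lowest length index. The part of the index was not tested. Birc5, or survivin, had 203 ± 36.3 and 244 ± 35.6 CPM (0.26, adjusted p = 0.744). In WT against KO, 3 of the 7 were at an unadjusted p under 0.05 (2.19% of all genes), where the other 4 lists had 0. These were Xiap (0.60) and Birc5 (177 ± 31.1 in WT, 0.46) with higher and Birc3 (192 ± 28 and 154 ± 12.8 CPM, -0.31) with lower estimates in KO, all at an adjusted p of 0.999, and the list median was -0.09. HET had 27.2 ± 3.53 CPM of Xiap, 229 ± 16.2 of Birc5 and 160 ± 31.7 of Birc3. KO minus HET was -0.30, 0.09 and -0.05 in that order (edgeR adjusted p = 0.6165, 0.8816 and 0.9265). Only WT lacked Vav-Cre, so that Cre and the loss of ZBTB38 cannot be told apart for these genes.

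Among the p53 regulators 1 of 17 tested genes was at an unadjusted p under 0.05 in WT plus HET against KO, a share near the 6.3% of all genes. It was the p53-binding repair protein gene Trp53bp1. It had 53.8 and 66.3 CPM in WT, 76.0 and 75.4 in HET, and 26.8 to 61.9 in KO (-0.75, SE 0.224, adjusted p = 0.744), and KO replicate 4 alone reached the control range. The lowest values were those of KO replicates 6 and 1 (26.8 and 27.2 CPM), the libraries with the lowest length index (-0.356 and -0.73). The part of the index was not tested. Ep300 and Usp7 followed, at -0.46 and -0.23 (adjusted p = 0.744 for both).

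Among the p53 targets 3 of 30 tested genes were at an unadjusted p under 0.05 in WT plus HET against KO (6.3% of all genes), and not in 1 direction. Trp53inp1, a stress-induced partner of p53, had 101.1 and 92.1 CPM in WT, 178.0 and 132.5 in HET and 80.3 to 100.6 in KO (-0.48, adjusted p = 0.744). Against WT alone the difference was -0.10 (adjusted p = 0.999). Rps27l had 99.0 to 104.8 CPM in controls and 102.7 to 182.0 in KO (0.41, adjusted p = 0.744). Bax, the pore-forming death effector, had 95.3 to 103.2 in controls and 102.7 to 163.7 in KO (0.29, adjusted p = 0.744). For Rps27l and Bax the highest library was KO replicate 1, that of the lowest length index. The classic targets Bbc3 (-0.08), Pmaip1 (-0.02) and Ccng1 (-0.01), named after their values were seen, had adjusted p of 0.962, 0.991 and 0.994. The median of the list was -0.04, with 13 of 30 estimates above 0 (52.8% of all genes).

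**Figure D5:**
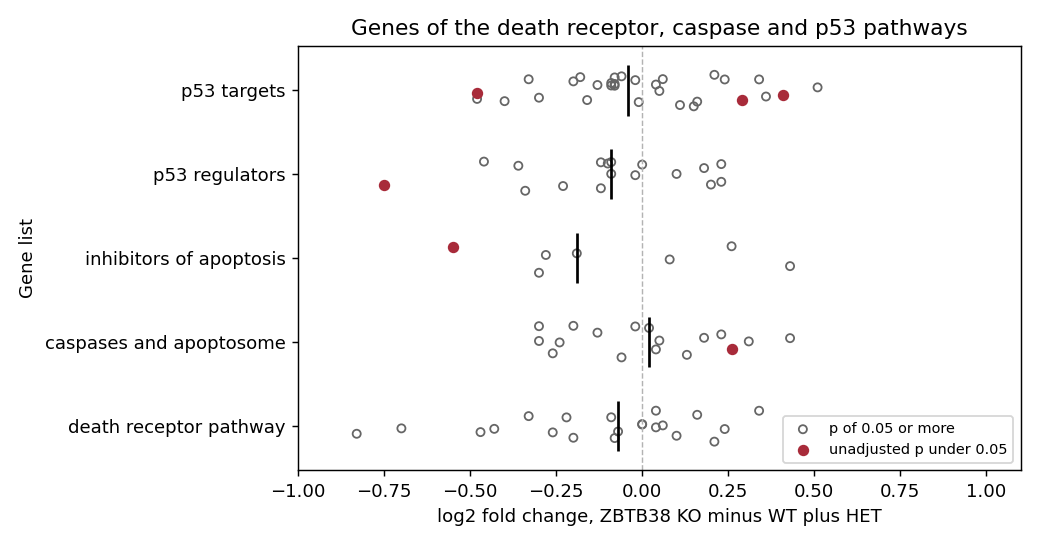
Log2 fold change, KO minus WT plus HET, of every tested gene of the 5 lists (points, spread vertically for legibility), with the list median (bar). Filled points have an unadjusted p under 0.05, 6 in all; no gene passed the adjusted threshold, and the medians lie between -0.19 and 0.02.

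In HET against KO and WT against HET the lists were again without a call. At an unadjusted p under 0.05, HET against KO had 4 of 22 genes of the death receptor pathway, 3 of 17 caspase and apoptosome genes, 2 of 7 inhibitors of apoptosis, 3 of 17 p53 regulators and 5 of 30 p53 targets, where 10.2% of all genes were found. WT against HET had 2, 1, 1, 0 and 3 in the same order (6.42% of all genes). Trp53inp1 had the smallest p of any listed gene, with 155 ± 32.2 CPM in HET against 90.3 ± 8.16 in KO (-0.78, SE 0.142, adjusted p = 0.22) and 96.6 ± 6.40 in WT (0.68, HET minus WT, adjusted p = 0.709). Xiap, a direct inhibitor of caspase-9, had 14.5 ± 1.36 CPM in WT, 27.2 ± 3.53 in HET and 22.0 ± 2.90 in KO, a difference of 0.91 for HET minus WT (adjusted p = 0.709) and 0.60 for KO minus WT (adjusted p = 0.999).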

How the data were processed

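NP-binding germinal center B cells of 10 mice, 1 library each, were profiled by paired-end RNA-seq, with SMART-Seq v4 named in the study's methods and Nextera in the labels. The authors quantified reads with Salmon (0.9.1 in the submitters' processing notes, which also name DESeq2 2.11.40.6) against Gencode vM17, and deposited an estimated count, a TPM and lengths for each of 64019 transcripts; 46.8% of the estimated counts were not whole. The deposited TPM values are scaled by transcript length and depth by Salmon.

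Counts were summed per gene ID (22380 genes), rounded and tested with edgeR 4.0.16 (quasi-likelihood, TMM, low counts removed by filterByExpr, Benjamini-Hochberg over all genes, threshold 0.1) in R 4.3.3. Each of the 9 members had 1 gene ID, while 14 symbols had more than 1. WT against KO used its own 8 libraries, and WT plus HET against KO all 10; both comparisons with HET used 1 fit with a term per genotype. CPM are TMM-scaled. Ratios and transcript shares were tested by exact two-sided permutation. Group and replicate came from the labels. Total estimated counts were 26612431 to 41059082 per library, and replicates differed by more than sampling noise (chi-square per gene 25.7 to 161.3). With 1 library per mouse, p-values measure the spread between libraries, in which mouse and library preparation cannot be told apart. In both comparisons with HET this spread was shared over all genotypes.

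The 9 genes, the lists and the tests were chosen with earlier results of these data known. Named were the 9 genes, Zbtb38, from each list every gene past the threshold, the 3 with the smallest p in WT plus HET against KO and every caspase, and the 2 genes most alike to each member; others were named after their values were seen. Some items that this rule names are not reported here. Alternatives were DESeq2 1.42.0 and its size factors, limma 3.58.1 on TPM in log2 with a pseudocount of 1 or of 0.1, leaving every gene in, counts scaled by length, a threshold of 0.05, other fits, each library left out and, chosen after the data were seen, a length index as covariate. Scripts were tested on simulated data. Sequences are from Gencode vM21 and RefSeq.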

Additional observations from a re-analysis of the deposited data

Results flagged for a closer look

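Of 21 sets of 6 KO values checked for a library far from the others, 1 was flagged, where chance flags about 1.05. The transcript ENSMUST00000159110.7 held 13.1% of the Apaf1 TPM in KO replicate 6, against 40.7% to 57.0% in the other 5 KO libraries. In WT the share was 57.8% and 23.1%.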

How the results depend on the processing

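No member passed an adjusted p of 0.1 in WT against KO or WT plus HET against KO under any alternative run, while 2 calls appeared in the comparisons with HET: Casp9 in HET against KO with DESeq2 and Apaf1 in WT against HET fitted on those groups alone. The count of genes called moved more. DESeq2 gave 6 in WT against KO, 18 in WT plus HET against KO, 458 in HET against KO and 123 in WT against HET, against 1 in each with edgeR. In WT against KO the count was 0 with limma on log2(TPM + 1), 3 on log2(TPM + 0.1), 0 with length-scaled counts, 0 at a threshold of 0.05 and 2 in one fit of all genotypes; in WT plus HET against KO it was 0 with both limma fits and 0 with length-scaled counts. Fitted on their own groups, HET against KO gave 0 and WT against HET 523. With the length index as covariate the count was 0 in all 4 comparisons.

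No label pairs libraries of the same replicate number, and deviations of same-numbered libraries correlated at -0.01 to 0.13. With 2 WT and 2 HET libraries, this check cannot exclude a shared litter or batch. With the replicate block the counts were 6, 0, 4 and 66 in the order above, Cdkn1a became 0.32 in WT plus HET against KO and 0.04 in HET against KO, and Fas became 0.13 in HET against KO; no member was called.

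Some estimates changed sign, none of them called, among them Apaf1 in WT plus HET against KO (-0.30 to 0.18 with the length index) and Cdkn1a in HET against KO (-0.36 to 0.04 with the replicate block). On TPM, where the median of all genes moved to -0.107 and -0.157 in WT against KO and to -0.083 and -0.115 in WT plus HET against KO, Fadd was -0.10 and -0.11 and Casp8 -0.11 and -0.11 in the first comparison (pseudocounts of 1 and 0.1), and in the second Fas was -0.06 with both, Casp8 -0.09 and -0.10, and Trp53 -0.04 with both. With the length index, WT against KO gave Fas -0.03, Fadd -0.19, Casp9 0.05, Trp53 -0.01, Mdm2 0.01 and Cdkn1a -0.15; WT plus HET against KO gave Fas -0.20, Fadd -0.06, Cflar 0.04, Apaf1 0.18, Trp53 -0.09 and Mdm2 0.06; and HET against KO gave Cflar 0.12, Trp53 -0.21 and Mdm2 0.11. The cause was not tested. Casp9 over Apaf1 in WT plus HET against KO was 0.02 with CPM in place of TPM.

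Leaving out each library in turn gave 0 to 2 genes called in WT against KO, 1 to 2 in WT plus HET against KO, 0 to 5 in HET against KO (5 without KO replicate 2) and 0 to 16 in WT against HET (16 without KO replicate 6). For members whose sign changed, WT against KO ranged from -0.26 to 0.34 for Fadd, -0.04 to 0.10 for Casp8, -0.16 to 0.03 for Casp9 and -0.15 to 0.42 for Cdkn1a. WT plus HET against KO ranged from -0.01 to 0.08 for Casp8, -0.48 to 0.09 for Cdkn1a and -0.06 to 0.13 for Fas. HET against KO ranged from -0.08 to 0.17 for Casp8, -0.06 to 0.14 for Trp53 and -0.13 to 0.05 for Cflar, and WT against HET from -0.18 to 0.02 for Cflar, -0.14 to 0.11 for Casp8 and -0.02 to 0.28 for Trp53. The log2 ratio of Casp9 over Apaf1 in WT plus HET against KO ranged from -0.27 to 0.05 and that of Fadd over Fas in WT against KO from -0.47 to 0.13. Shares of the main transcript, in percentage points, ranged in WT against KO from -2.0 to 1.58 for Cflar, -16.8 to 17.9 for Apaf1, -17.6 to 18.5 for Cdkn1a and -1.03 to 0.206 for Fas, and in WT plus HET against KO from -0.778 to 1.44 for Casp8, -11.8 to 5.27 for Cdkn1a, -1.89 to 2.66 for Cflar and -12.8 to 0.421 for Apaf1. With 2 WT and 2 HET mice, the intervals given with each gene set what can be resolved.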
